A study of Mus musculus with 6 samples.

Results

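Mutant-line-only regions are stretches of the mouse genome that carried a called H3K4me3 peak in every list from STHdhQ111 cells and none in the list from STHdhQ7 cells. The overlapping peaks of 6 deposited lists were merged into 61171 regions, and a region was kept where it overlapped a peak in all 5 mutant-line lists and no peak in the wild-type list. There were 3679 such regions, which is 6.01% of all merged regions. The number depends on the settings. It was 1004 when all 6 lists were limited to scores of at least 47, the pooled median, 423 when the 5 mutant-line lists alone were, 1824 when 50% reciprocal overlap was asked for, and 5934 when 1 compound list could be missing. The regions were chosen by the presence and absence of called peaks, so their strengths in the 5 lists and their lack of a Q7SST peak are descriptions and were not tested.

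STHdh cells are conditionally immortalized mouse striatal progenitor cells of the C57BL/6 strain that serve as a culture model of Huntington's disease. The mutant line STHdhQ111 is homozygous for a knocked-in huntingtin allele with an expanded glutamine tract, and STHdhQ7 is the wild-type line. Q7SST was the wild-type line and Q111SST the mutant line, both held for 24 hours in serum-free medium with vehicle (DMSO), and 4 more lists came from STHdhQ111 cells treated with 10 uM cyproheptadine, loxapine, diacylglycerol kinase inhibitor II (DKI) or meclizine in the same medium for the same time. Each genotype was represented by 1 cell line and each condition by 1 list, so differences caused by the huntingtin allele and other differences between the lines cannot be told apart, and no spread between replicates could be computed. Intervals below are 95% Wilson intervals, which cover counting error only, and neighbouring regions are not independent.

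H3K4me3 is trimethylation of lysine 4 on histone H3. The mark is laid down by SET1 and MLL methyltransferase complexes, is strongest at the first nucleosomes of active genes, and is broad at promoters rich in CpG dinucleotides, where proteins with a CXXC domain bind unmethylated CpG. Weaker H3K4me3 is also found at active enhancers. A missing peak means that no peak was called and does not show that the mark was absent.

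The sequences below show the kind of DNA found in the group. The first 4 are the 200 bases directly upstream of an annotated start inside the strongest mutant-line-only promoters, on the strand of the gene and on GRCm38 (RefSeq sequence), with each CpG in capitals. They are D2hgdh at chr1:93825040-93825239 on the plus strand, Pctp at chr11:90002895-90003094, Tep1 at chr14:50870561-50870760 and Mfsd10 at chr5:34637213-34637412 on the minus strand. Scn3a ranked among them but is not shown, since its start lay too close to the edge of the region.
D2hgdh: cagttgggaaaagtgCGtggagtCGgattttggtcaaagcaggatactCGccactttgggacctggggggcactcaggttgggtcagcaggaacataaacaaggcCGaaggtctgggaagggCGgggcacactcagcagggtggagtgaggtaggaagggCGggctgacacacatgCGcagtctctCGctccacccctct
Pctp: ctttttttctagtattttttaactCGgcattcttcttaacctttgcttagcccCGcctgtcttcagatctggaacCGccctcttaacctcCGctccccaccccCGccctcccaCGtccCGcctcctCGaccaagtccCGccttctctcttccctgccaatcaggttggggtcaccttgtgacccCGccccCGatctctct
Tep1: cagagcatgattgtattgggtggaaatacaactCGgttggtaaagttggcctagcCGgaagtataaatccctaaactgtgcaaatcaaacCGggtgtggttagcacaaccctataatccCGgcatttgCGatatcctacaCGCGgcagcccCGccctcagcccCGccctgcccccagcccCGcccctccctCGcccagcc
Mfsd10: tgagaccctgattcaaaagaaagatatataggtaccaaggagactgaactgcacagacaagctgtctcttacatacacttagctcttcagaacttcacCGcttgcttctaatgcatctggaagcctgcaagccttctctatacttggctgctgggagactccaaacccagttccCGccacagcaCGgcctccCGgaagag

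These stretches held 8 CpG in D2hgdh, 11 in Pctp, 11 in Tep1 and 4 in Mfsd10. Counted for 1 start per gene, the median over 163 genes whose start lay inside a mutant-line-only region and that had no Q7SST peak at any start was 5 CpG per 200 upstream bases (quartiles 3 and 11). The median was 13 CpG (quartiles 8 and 19) over 11119 genes with a start inside a region of all 6 lists, and 7.5 CpG over 554 genes with a start inside a region found in Q7SST alone. At most 4 CpG were present in 44.8% of the mutant-line-only promoters (interval 37.4% to 52.5%), compared with 9.80% of the promoters shared by all 6 lists (9.26% to 10.4%) and 30.5% of the Q7SST promoters (26.8% to 34.5%). The 3 intervals did not overlap. CpG content took no part in choosing the regions.

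Distal examples are shown for TGACTCA, the site bound by AP-1, a dimer of Fos and Jun family proteins. Over 5 kb from a start it was about as frequent in regions of all 6 lists (27.1%) as in mutant-line-only regions (27.3%). The 3 strongest distal mutant-line-only regions that held it in their central 300 bases are shown as 200 bases on the plus strand of GRCm38, with the motif in capitals. They are an intron of Foxp1 at chr6:99275513-99275712, a stretch outside any coding gene near Sash1 at chr10:8945169-8945368, and a stretch within the Rbms1 gene at chr2:60901586-60901785.
Foxp1: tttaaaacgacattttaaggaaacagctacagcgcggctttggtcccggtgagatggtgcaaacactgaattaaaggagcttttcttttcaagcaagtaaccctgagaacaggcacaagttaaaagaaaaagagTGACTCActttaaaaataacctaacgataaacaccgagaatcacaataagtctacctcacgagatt
Sash1: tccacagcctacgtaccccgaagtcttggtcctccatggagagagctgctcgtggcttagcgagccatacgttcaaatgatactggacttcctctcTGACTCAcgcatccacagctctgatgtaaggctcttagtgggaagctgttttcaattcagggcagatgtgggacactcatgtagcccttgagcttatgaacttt
Rbms1: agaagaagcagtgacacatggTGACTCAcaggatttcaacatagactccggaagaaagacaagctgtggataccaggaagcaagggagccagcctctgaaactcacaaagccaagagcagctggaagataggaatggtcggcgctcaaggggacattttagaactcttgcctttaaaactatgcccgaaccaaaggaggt

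Most mutant-line-only regions lay away from annotated starts. Of the 3679 regions, 533 (14.5%, interval 13.4% to 15.7%) were within 1 kb of an annotated transcription start site of any gene, 263 (7.15%) overlapped an exon elsewhere, 1590 (43.2%) lay in introns and 1293 (35.1%) lay outside genes. Regions present in all 6 lists were within 1 kb of a start in 58.5% of cases (57.8% to 59.1%), regions found in Q7SST alone in 16.6% (15.8% to 17.4%), and regions of Q111SST without Q7SST that missed at least 1 compound list in 11.1% (10.4% to 11.8%). The last 2 classes resembled the mutant-line-only regions in location far more than the shared regions did. With only peaks scoring at least 47, the pooled median, the share of mutant-line-only regions near a start was 25.5%, and it was 25.8% when the whole Q7SST list was kept. The median distance to the nearest start was 10541 bp, and 2525 regions (68.6%) lay over 5 kb from any start.

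**Figure D1:**
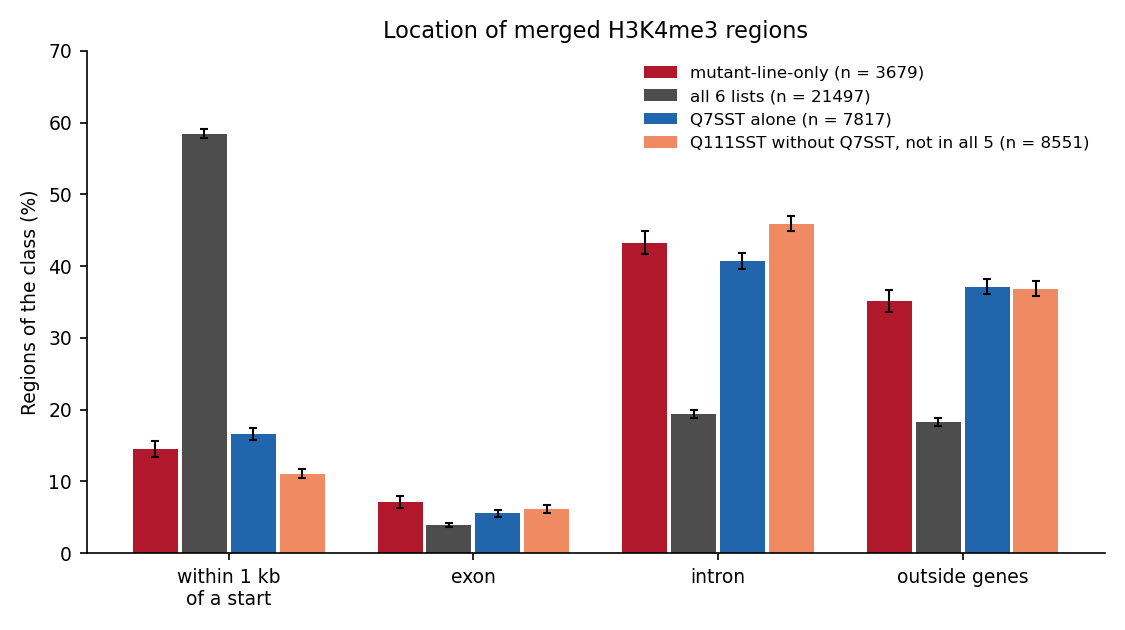
Percent of merged H3K4me3 regions (vertical axis) within 1 kb of a start, in exons, in introns or outside genes, for 4 classes of regions given with their number. Bars are shares and error bars are 95% Wilson intervals. 14.5% of mutant-line-only regions were near a start, against 58.5% of regions in all 6 lists. Limited to peaks that scored at least 47, the mutant-line-only share was 25.5%.

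Of the 533 regions near a start, 370 were near a start of a protein-coding gene, 102 were near a long noncoding RNA start and no coding start, and 61 were near starts of other types, such as pseudogenes. A start lay inside the region for 352 of them. The regions were of middle width. Their median width was 1068 bp (quartiles 842 and 1379 bp), compared with 1644 bp for regions in all 6 lists, 525 bp for regions in Q7SST alone and 652 bp for regions of Q111SST that missed a compound list. A merged region is widened by every list that adds a peak, so the 3 comparisons with classes of other list numbers are not like with like.

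Median GC content was 42.8% in mutant-line-only regions, 48.8% in regions of all 6 lists, 44.0% in regions of Q7SST alone and 42.8% in regions of Q111SST that missed a compound list. The ratio of observed to expected CpG had medians of 0.228, 0.450, 0.228 and 0.184 in the same order. Near starts, the medians were 0.293 in 533 mutant-line-only regions, 0.595 in 12568 regions of all 6 lists and 0.459 in 1298 regions of Q7SST alone. Over 5 kb from any start they were 0.219, 0.206 and 0.204, so the classes parted near starts and lay close together far from them. Bases masked as repeats made up a median of 15.8% of mutant-line-only regions, 12.8% of regions in all 6 lists, 11.2% of regions in Q7SST alone and 14.6% of regions of Q111SST that missed a compound list. Over 50% of the sequence was repeat in 5.27% of mutant-line-only regions, 5.67% of regions of Q111SST that missed a compound list, 2.69% of regions in Q7SST alone and 1.21% of regions in all 6 lists.

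The mutant-line-only regions were weak to medium peaks within each list. Strength was read as a percentile, the rank of a region's highest peak score among all peaks of that list, with 100 for the strongest. The median percentile was 45.2 in Q111SST, 36.5 under cyproheptadine, 52.8 under loxapine, 30.9 under DKI and 43.8 under meclizine. For regions of all 6 lists the medians were 72.4, 66.5, 74.8, 62.7 and 71.0 in the same order, and 69.9 in Q7SST. The median scores of the mutant-line-only regions were 38 in Q111SST, 29 under cyproheptadine, 49 under loxapine, 29 under DKI and 46 under meclizine. DKI was the weakest of the 5 lists for 1510 regions (41.0%) and cyproheptadine for 1150 (31.3%), and loxapine was the strongest for 1788 (48.6%).

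The order of the median percentiles, and not that of the scores, followed the length of the lists. Loxapine had 45564 peaks, Q111SST 40406, meclizine 38577, cyproheptadine 33721 and DKI 30758. The difference from Q111SST in percentile had a median of 7.06 under loxapine, -0.83 under meclizine, -7.83 under cyproheptadine and -11.0 under DKI, and list length and compound cannot be told apart here. Within the group, percentiles correlated across regions between each pair of lists with Spearman's rho of 0.56 to 0.70 (3679 regions, all from 1 cell line), the highest between Q111SST and meclizine.

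A few regions ranked far from their Q111SST rank in a compound list. The largest rise under cyproheptadine was at the start of Oasl1, an interferon-induced gene of the oligoadenylate synthetase family, at chr5:114922327-114924485. Its scores were 23 in Q111SST, 108 under cyproheptadine, 22 under loxapine, 85 under DKI and 27 under meclizine, so 2 compounds were high and the vehicle and the other 2 were low. The largest rise under loxapine was 1468 bp from a start of Dcaf5, a substrate receptor of a ubiquitin ligase, with a score of 13 in Q111SST and 101 under loxapine. With DKI it was a region 325854 bp from Foxa2, a forkhead factor of floor plate and endoderm (19 and 95). With meclizine it was a region 35833 bp from the olfactory receptor gene Olfr267 (24 and 148). The lowest differences in percentile from Q111SST were -70.6 under cyproheptadine (a region near Acyp2), -53.4 under loxapine (near Arhgef19), -66.9 under DKI (near Adam17) and -68.8 under meclizine (near Mrgprd), beside highest differences of 64.7, 75.2, 64.1 and 61.6. These are the extremes of 3679 values, each from 1 list, and they include the median differences between lists given above.

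Stronger regions lacked a Q7SST peak less often. Among the 25176 regions present in all 5 mutant-line lists, 14.6% had no Q7SST peak. The share was 4.07% (3.74% to 4.42%) within 1 kb of a start, 24.6% over 1 kb and up to 5 kb away, and 26.4% (25.6% to 27.3%) farther out. When the regions were split by the lowest of their 5 percentiles, the share fell from 23.8% in the weakest of 5 equal bands of the scale to 0.345% in the strongest near starts, and from 41.3% to 7.34% over 5 kb from a start. In each of the 5 bands the distal share exceeded the near-start share with intervals that did not overlap. The bands are wide and near-start regions lay higher on the scale, so strength within a band was not equal.

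**Figure D2:**
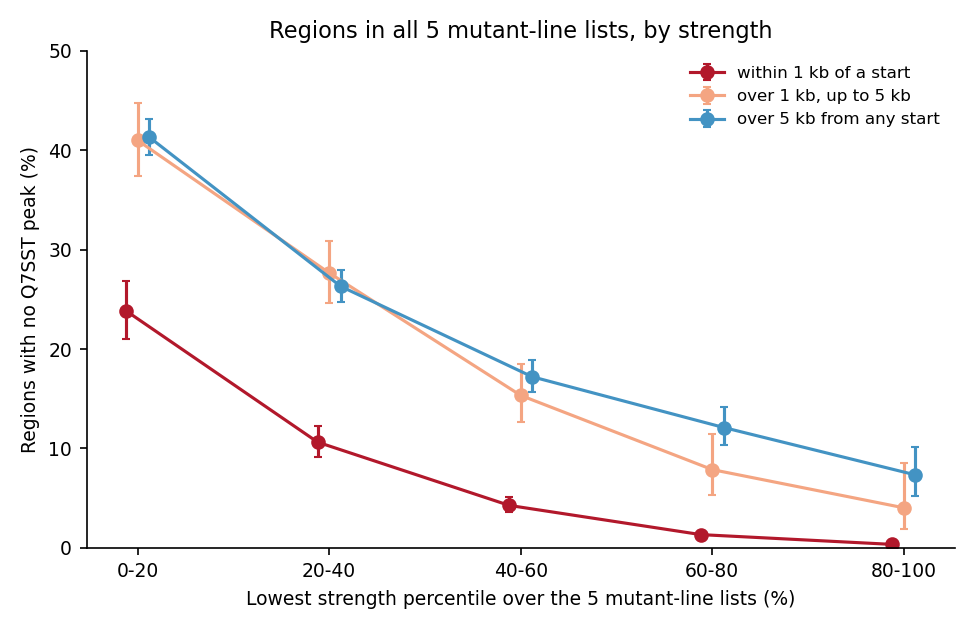
Percent of regions in all 5 mutant-line lists that had no Q7SST peak (vertical axis) by the lowest strength percentile over those lists (horizontal axis, 5 bands), for 3 distances from the nearest start. Points are shares and error bars are 95% Wilson intervals. In the strongest band 0.345% of near-start regions and 7.34% of regions over 5 kb away had no Q7SST peak.

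Near-start regions poor in CpG lacked a Q7SST peak more often than CpG-rich ones within each strength band. The ratio was taken over the whole merged region, which need not contain the start. CpG-rich regions lay higher on the scale, so strength within a band was not equal here either. Near starts, regions with an observed to expected CpG ratio under 0.4 had no Q7SST peak in 15.1% of 2496 cases, and those at or above 0.4 in 1.48% of 10605. In the weakest band the shares were 34.1% (29.8% to 38.6%) and 11.6% (8.72% to 15.2%), in the next 20.6% and 4.70%, and in the middle band 11.6% and 2.09%. The fourth band gave 7.20% (5.22% to 9.85%) and 0.548% (0.355% to 0.845%). In the strongest band, 6 of 413 and 8 of 3643 regions had no Q7SST peak, with intervals of 0.667% to 3.13% and 0.111% to 0.433%.

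On the boundary of the rule, 852 mutant-line-only regions (23.2%) had a lowest mutant-line score of 15 or less, and 65 of them had the lowest score in any list, 10. On the other side, 103 of the 21497 regions in all 6 lists had a Q7SST score of 15 or less. The first is the lowest of 5 scores and the second a single score, so the counts are not comparable. A further 2417 regions had no Q7SST peak and a peak in 4 of the 5 mutant-line lists, of which 1182 missed DKI, 884 cyproheptadine, 166 meclizine, 162 Q111SST and 23 loxapine. Regions of Q7SST without any mutant-line peak numbered 7817, or 12.8% of all merged regions, but needed a peak in 1 list and not in 5. The nearest Q7SST peak lay a median of 13995 bp from a mutant-line-only region (quartiles 5671 and 36525 bp). It was within 1 kb for 85 regions (2.31%), within 5 kb for 797 (21.7%) and over 50 kb away for 665 (18.1%).

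At promoters, 362 protein-coding genes had a mutant-line-only region within 1 kb of a start. For 205 of them Q7SST had no peak within 1 kb of any annotated start, which is 1.60% of the 12790 protein-coding genes marked in Q111SST. The 205 became 60 with scores of at least 47 in the mutant-line lists and 130 with 50% reciprocal overlap. The other 157 had a Q7SST peak within 1 kb of a start, in most cases at a different start of the same gene. For 162 of the 205 genes the start lay inside the strongest of its regions. The lowest of the 5 percentiles had a median of 32.2 over these genes and reached 96.3.

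The strongest was D2hgdh, which encodes the mitochondrial enzyme that oxidizes D-2-hydroxyglutarate. Its region at chr1:93824751-93826135 covered 3 of 8 annotated starts and reached into exons, untranslated sequence and coding sequence. The scores were 232 in Q111SST, 148 under cyproheptadine, 177 under loxapine, 166 under DKI and 232 under meclizine, all above the 96th percentile of their list. The nearest Q7SST peak lay 9906 bp from the region. Pctp, which encodes a phosphatidylcholine transfer protein, had a region over its single start at chr11:90001952-90003308. It scored 144 in Q111SST, 119 under cyproheptadine, 145 under loxapine, 145 under DKI and 181 under meclizine, and the nearest Q7SST peak lay 166582 bp away.

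Tep1, a component of the telomerase complex and of vault particles, scored 153 in Q111SST and 109, 157, 119 and 168 under cyproheptadine, loxapine, DKI and meclizine. Its region at chr14:50869449-50871383 covered 1 of 8 starts. Mfsd10, a transporter of the major facilitator superfamily, scored 157 in Q111SST and 104, 128, 107 and 172 with the compounds in that order. Its region at chr5:34635897-34637643 covered 12 of 20 starts and lay 124 kb from the start of Htt, the huntingtin gene itself. The promoter region of Htt (chr5:34760901-34763325) was present in all 6 lists, at percentiles of 74.5 in Q7SST, 79.4 in Q111SST, 69.7 under cyproheptadine, 79.0 under loxapine, 61.3 under DKI and 90.3 under meclizine, so the mutant-line lists fell on both sides of Q7SST. Within 500 kb of Htt, 1 of 35 merged regions was mutant-line-only, 16 were in all 6 lists and 2 were in Q7SST alone. Over all merged regions the shares were 6.01% for mutant-line-only and 12.8% for Q7SST alone. A count of 1 in 35 is too small to set apart from that share.

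Scn3a encodes an alpha subunit of a voltage-gated sodium channel of brain neurons. The region at its start, chr2:65565644-65567554, scored 186 in Q111SST, 109 under cyproheptadine, 154 under loxapine, 132 under DKI and 208 under meclizine. It was AT-rich, with 38.5% GC and an observed to expected CpG ratio of 0.227. The nearest Q7SST peak was 81692 bp away. Pon3, a lactonase of the paraoxonase family, scored 168 in Q111SST, 99 under cyproheptadine, 149 under loxapine, 129 under DKI and 162 under meclizine at chr6:5254967-5256377. Its region covered 5 of 6 starts and held the AP-1 motif. Zfp182, an X-linked zinc finger gene, scored 173 in Q111SST and 99, 113, 135 and 191 with the compounds at chrX:21061110-21062518, and all 5 of its starts lay inside.

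The next promoters in rank belonged to genes of many kinds. Esrp2, a splicing regulator of epithelial cells, scored 133 in Q111SST and between 94 and 154 with the compounds. Ap1g2, a subunit of a clathrin adaptor complex, scored 149 in Q111SST and between 94 and 155. Cln3, a lysosomal membrane protein whose loss causes a juvenile form of neuronal ceroid lipofuscinosis, and Apobr, an apolipoprotein B receptor, shared 1 region at chr7:126583110-126584715 that scored 122 in Q111SST and between 87 and 130. It covered 14 of 19 Cln3 starts and no Apobr start, the nearest of which was 227 bp away, so the Apobr entry rests on the Cln3 promoter. Pir, a nuclear iron-binding protein, had all 5 of its starts in 1 region with a Q111SST score of 127, and Q7SST had no peak within 94634 bp.

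Aspn, a small leucine-rich proteoglycan of the extracellular matrix, stood out for loxapine. Aspn scored 98 in Q111SST, 89 under cyproheptadine, 197 under loxapine, 97 under DKI and 124 under meclizine. Its region was 2593 bp wide with 34.9% GC and a CpG ratio of 0.128, held the AP-1 motif, and lay 2779 bp from a Q7SST peak. The Q111SST scores of Tvp23a, a Golgi membrane protein, Fetub, a fetuin, Tmem71 and Rbm47, an RNA-binding protein, were 127, 113, 96 and 134.

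Those of Tmem35b, Ptgr2, a prostaglandin reductase, Car9, a hypoxia-induced carbonic anhydrase, and Adh7, a retinol-oxidizing alcohol dehydrogenase, were 129, 124, 118 and 129. Ccdc125, Aebp1, a matrix-associated protein, Dnajc15, a mitochondrial co-chaperone, and Casp4, an inflammatory caspase, closed the 25 at 122, 119, 138 and 84. Dnajc15 was the most isolated of the 25, at 388950 bp from any Q7SST peak. Casp4 was highest under DKI among the percentiles (86.6) and lowest in Q111SST (73.2). The weakest list was cyproheptadine for 10 of the 25, DKI for 8, Q111SST for 4, loxapine for 2 and meclizine for 1. The AP-1 motif was found in 2 of the 25, Pon3 and Aspn.

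**Figure D3:**
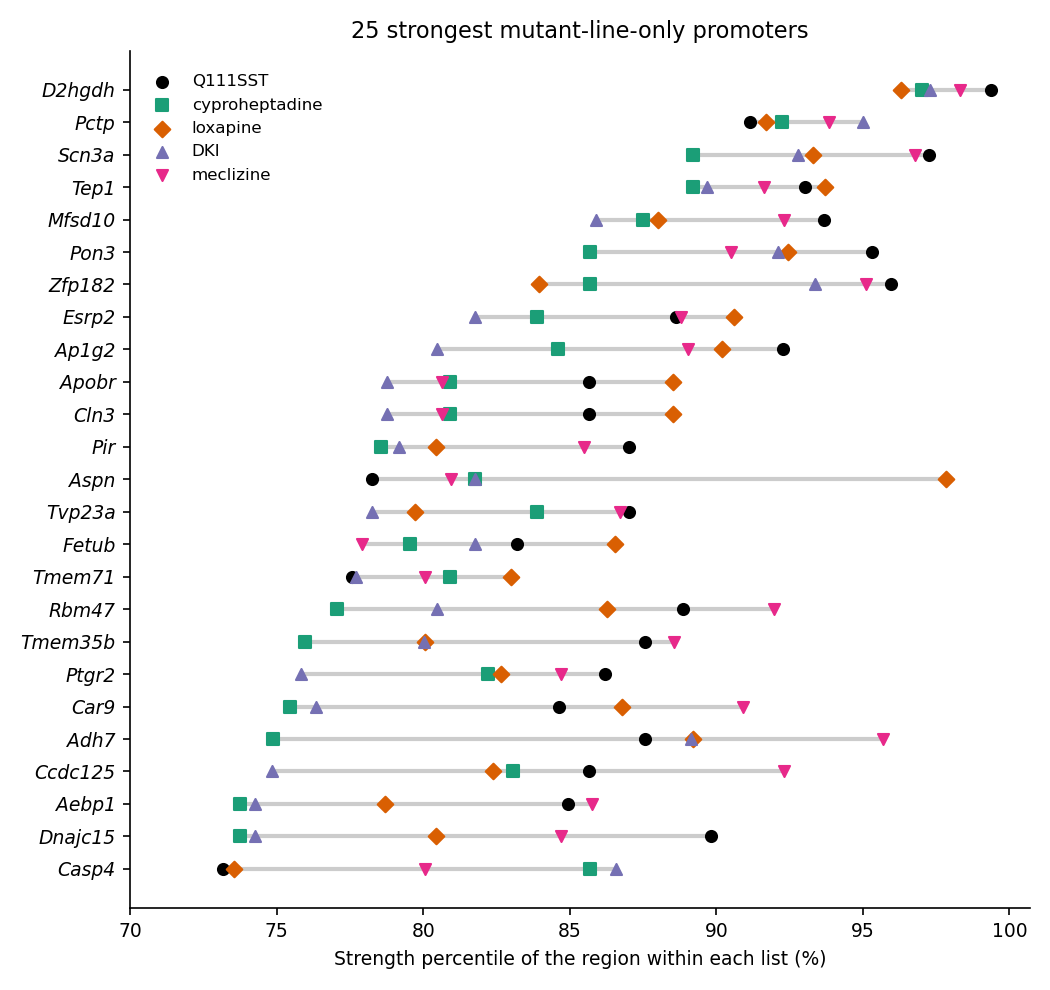
Strength percentile within each list (horizontal axis, 100 is the strongest peak) for the regions at the 25 strongest mutant-line-only promoters (rows), with 1 point for each of the 5 mutant-line lists and a grey line from the lowest to the highest. Cln3 and Apobr share 1 region, and Aspn reaches 97.8 under loxapine while the other 4 lists lie between 78.3 and 81.8.

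Among genes with a Q7SST peak at another start, the strongest mutant-line-only region was at Ptpre, a receptor-type tyrosine phosphatase. That region, chr7:135651861-135652910, covered 2 of 7 starts and scored 172 in Q111SST, 141 under cyproheptadine, 168 under loxapine, 161 under DKI and 194 under meclizine, while the nearest Q7SST peak was 41578 bp away. It was followed by Tdrd7, a tudor domain protein of RNA granules, with scores of 103 in Q111SST and 99 to 132 with the compounds. Ptpre and Tdrd7 were named after their values were seen.

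Of 394 Zfp genes 344 were marked in Q111SST and 2 had a mutant-line-only promoter, Zfp182 and Zfp879 (0.581% of those marked, against 1.60% of all marked coding genes). Of 385 Slc transporter genes 218 were marked and 7 had one (3.21%), namely Slc43a3, Slc35d2, Slc22a4, Slc39a8, Slc6a12, Slc26a10 and Slc12a5. Slc12a5 encodes the potassium chloride exporter of mature neurons and scored 48 in Q111SST, 11 under cyproheptadine, 53 under loxapine, 38 under DKI and 74 under meclizine. Of 94 Kcn potassium channel genes 26 were marked and 1, Kcnk5, had one (3.85%). None was counted among the 26 marked Hox genes or the 6 marked Krt keratin genes. The Kcn, Hox and Krt numbers are too small to read against 1.60%. Hoxa2 had a mutant-line-only region at its start with a Q7SST peak 914 bp from that start. Q7SST marked 350 of the Zfp genes, 227 of the Slc, 35 of the Kcn, 27 of the Hox and 3 of the Krt genes, which is more than Q111SST in each family but Krt.

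Of 44 collagen genes 25 were marked in Q111SST and 27 in Q7SST. A mutant-line-only promoter was found at 4, or 16% of the 25, against 1.60% of all marked coding genes. With 25 marked genes this share has little precision. Col8a2, a collagen of basement membranes, scored 75 in Q111SST, 27 under cyproheptadine, 44 under loxapine, 47 under DKI and 66 under meclizine. Col6a3, a microfibrillar collagen, scored 76, 35, 69, 17 and 40 in the same order. Col5a3, a fibrillar collagen, scored 23, 13, 56, 16 and 34, and Col10a1, the collagen of hypertrophic cartilage, 56, 27, 104, 15 and 20. Each of the 4 had a score under 30 in at least 1 compound list.

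Single genes stood for the sodium channels (Scn3a, 1 of 4 marked Scn genes), the paraoxonases (Pon3, 1 of 2) and the claudins (Cldn34c1, 1 of 6), and the clustered protocadherins had 2 of 10, Pcdhga3 and Pcdhga5. With 2 to 10 marked genes per family these shares have no precision. Q7SST marked 3 Scn genes, 1 paraoxonase, 5 claudins and 15 clustered protocadherins.

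Of 75 genes in the cell type lists 39 were marked in Q111SST and 2 had a mutant-line-only promoter. That is 5.13% of those marked, against 1.60% of all marked coding genes, and a count of 2 in 39 is too small to set apart from that share. Sox2, a transcription factor of neural progenitors, had a region of 1070 bp within 1 kb of its start that scored 67 in Q111SST, 28 under cyproheptadine, 46 under loxapine, 43 under DKI and 97 under meclizine, with a Q7SST peak 995 bp away. That peak lay 1351 bp from the start, a little beyond the 1 kb used to call a promoter marked. Gfap, an intermediate filament protein of astrocytes, had a region of 424 bp that scored 49, 30, 48, 43 and 35, and its nearest Q7SST peak was 16765 bp away. Of the neural progenitor list 7 of 10 genes were marked in Q7SST and 7 in Q111SST, of the striatal neuron list 11 of 16 and 8, and of the mesenchymal list 9 of 12 and 8. The ventral forebrain list had 9 of 11 genes marked in Q7SST and 7 in Q111SST, the astrocyte list 4 of 7 and 5, the oligodendrocyte list 1 of 7 and 1, and the endothelial list 1 of 5 and 2. Of the 7 immune genes 1 was marked in each of these lists and 0 in the 4 compound lists. Foxp1 and Foxp2, forkhead factors of striatal projection neurons, each had a mutant-line-only region at one start and a Q7SST peak at another.

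Away from starts, the strongest mutant-line-only region lay in an intron of Adarb1, which encodes an adenosine deaminase that edits RNA in neurons. At chr10:77332620-77334004 it scored 199 in Q111SST, 167 under cyproheptadine, 269 under loxapine, 196 under DKI and 232 under meclizine, at or above the 98th percentile in all 5 lists and above every mutant-line-only promoter of a coding gene by its lowest percentile. The nearest Q7SST peak was 5520 bp away. The second overlapped an exon of F5, the gene of coagulation factor V, at chr1:164184129-164184775, and scored 183, 198, 210, 206 and 248 in the same order. It lay 32291 bp from the nearest coding start.

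The third lay outside genes at chr6:143750976-143752173, 194915 bp from Sox5, a transcription factor of neural and cartilage development. It scored 186 in Q111SST, 144 under cyproheptadine, 159 under loxapine, 201 under DKI and 235 under meclizine, and the nearest Q7SST peak lay 109815 bp away. The fourth, the Foxp1 intron shown above with its AP-1 motif (region chr6:99274971-99276154), scored 190, 124, 198, 198 and 242, and the nearest Q7SST peak was 51121 bp away. The fifth lay in a gene desert at chr11:111604717-111605799, 538553 bp from Kcnj2, an inward-rectifier potassium channel gene, and 205953 bp from any Q7SST peak, with scores of 167, 123, 193, 156 and 250. The remaining 3 of the 8 strongest lay in introns of Gm11639 and Brd3, a bromodomain reader of acetylated histones, and near Sash1, a signalling scaffold, with Q111SST scores of 148, 167 and 142. The Brd3 region was 49.5% repeat sequence.

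The AP-1 motif was carried by 950 of 3664 mutant-line-only regions on assembled chromosomes, or 25.9% (24.5% to 27.4%), within their central 300 bases on either strand. All regions together held it in 18.9%, regions of all 6 lists in 13.6% (13.1% to 14.0%) and regions of Q7SST alone in 16.7% (15.9% to 17.5%). Motifs were not counted separately in regions of Q111SST that missed a compound list, the class most like these in location. Regions of Q7SST alone needed a peak in 1 list and not in 5. The gap with the shared regions was not seen over 5 kb from a start, where the motif was in 27.3% of mutant-line-only regions (25.6% to 29.1%) and in 27.1% of regions in all 6 lists (26.1% to 28.1%). Distal regions of Q7SST alone held it in 18.3% (17.3% to 19.4%) and all distal regions in 23.8%. Within 1 kb of a start it was in 16.7% of mutant-line-only regions (13.8% to 20.1%), 4.69% of regions in all 6 lists (4.33% to 5.07%) and 7.70% of regions in Q7SST alone (6.38% to 9.28%), with 7.13% over all near-start regions. Near starts, the mutant-line-only regions thus held it more often than either class, with intervals apart, and far from starts more often than the Q7SST class alone. A start lay inside 352 of the 533 mutant-line-only regions near starts and 11256 of the 12568 in all 6 lists. For Q7SST alone it was 697 of 1298. The central 300 bases may therefore lie at different distances from a start, so the near-start shares are not like with like.

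**Figure D4:**
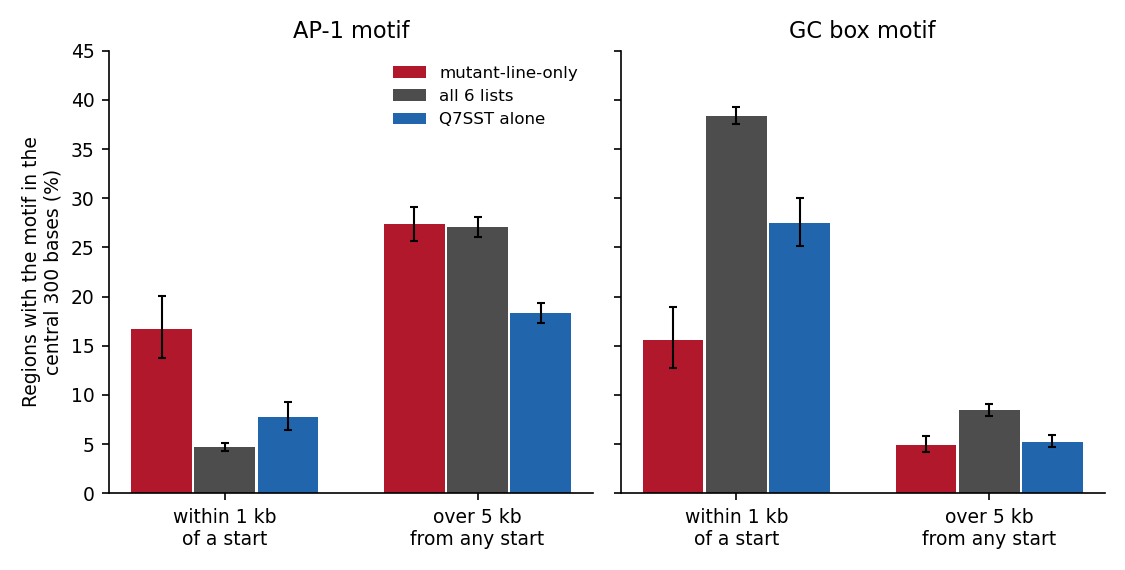
Percent of regions holding the AP-1 motif (left) or the GC box (right) in their central 300 bases on either strand, within 1 kb of a start and over 5 kb from any start, for 3 classes of regions. Bars are shares and error bars are 95% Wilson intervals. Near starts the AP-1 motif was in 16.7% of mutant-line-only regions and 4.69% of regions in all 6 lists, and the GC box in 15.6% and 38.4%.

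The GC box GGGCGG, bound by Sp1 family factors, showed the opposite order near starts. It was found in 15.6% of mutant-line-only regions (12.7% to 18.9%), 38.4% of regions in all 6 lists (37.5% to 39.2%) and 27.5% of regions in Q7SST alone, with 33.5% over all near-start regions. The ETS site CCGGAAG was in 2.63%, 8.16% and 3.24%, with 6.53% over all. The cyclic AMP response element TGACGTCA, which differs from the AP-1 site by 1 added base, was in 0.750% of mutant-line-only and 0.915% of shared near-start regions, a difference within the counting error, with 0.806% over all.

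The TATA box TATAAA was in 80 of 533 mutant-line-only regions near starts (12.2% to 18.3%), 8.44% of regions in all 6 lists (7.97% to 8.94%) and 10.9% of regions in Q7SST alone (9.28% to 12.7%), with 10.4% over all. The interval was apart from that of the shared class and overlapped slightly with that of the Q7SST class, which does not show that these 2 were alike. The TEAD site GGAATG followed the same order at 19.7% (16.5% to 23.3%), 12.8% (12.2% to 13.4%) and 195 of 1298 regions (13.2% to 17.1%), with 13.9% over all. The CCAAT box CCAAT was in 27.5% to 31.3% of the 3 classes near starts, and the E-box CACGTG in 4.88% to 5.93%. The forkhead site TGTTTAC was in 4.69%, the homeobox site TAATTA in 4.88% and the SOX site CCATTGT in 1.88% of the mutant-line-only regions near starts, and over all near-start regions in 3.22%, 4.45% and 2.56%. TATA boxes and AP-1 sites are AT-rich or CpG-free words, and base composition differed between the classes as given above. The share of near-start regions with a start inside also differed, as given above, and this limit applies to each motif.

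Within the strength bands, near-start regions with the AP-1 motif lacked a Q7SST peak in 34.3% of 108 cases in the weakest band (26.0% to 43.6%) and those without it in 22.2% of 706 (19.3% to 25.5%). In the second band the shares were 23.2% (17.2% to 30.5%) and 9.22% (7.79% to 10.9%). In the fourth band they were 3.95% (1.82% to 8.34%) and 1.23% (0.932% to 1.62%). The intervals were apart in these 3 bands. They overlapped in the third and the strongest band, where 10 of 132 and 1 of 135 regions with the motif lacked a Q7SST peak. Over 5 kb from a start the shares with and without the motif were 26.6% and 26.3% over all bands, a difference within the counting error.

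Along the genome the mutant-line-only regions were spread widely. Chromosomes 1 to 19 and X held 3657 of them, chromosome Y 7 and 8 unplaced contigs 15. Their share of merged regions ran from 4.14% on chromosome 12 (3.38% to 5.06%) to 7.10% on chromosome 13 (6.25% to 8.04%) among the autosomes and was 5.58% on X. Of 21 chromosomes examined, 7 (4.65%), 9 (4.45%), 12 and 17 (4.48%) had intervals below the 6.01% of the whole set. Chromosomes 6 (6.90%), 10 (6.76%) and 13 had intervals above it. Regions of Q7SST alone made up 13.3%, 13.7%, 16.3% and 14.8% on chromosomes 7, 9, 12 and 17. They made up 10.8%, 13.5% and 12.3% on chromosomes 6, 10 and 13, against 12.8% of the whole set. Both lines are described as female, yet each of the 6 lists had between 30 and 44 peaks on Y, so the 7 regions there are uncertain. All 7 lay over 1 kb from a start, and their lowest percentiles were between 1.16 and 23.9.

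**Figure D5:**
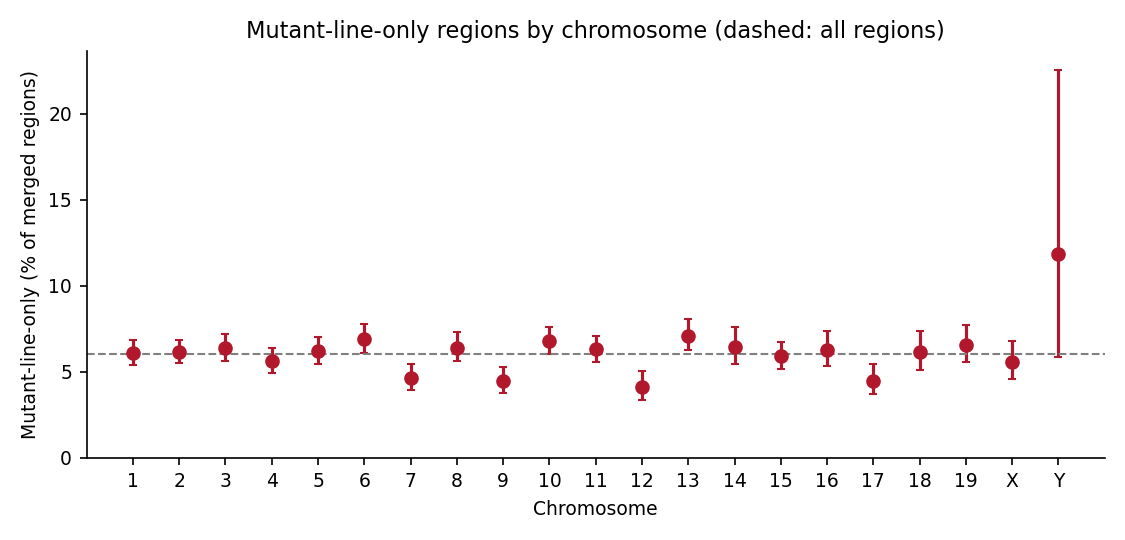
Mutant-line-only regions as a percent of the merged regions on each chromosome (vertical axis), with 95% Wilson intervals as error bars and the share over all regions, 6.01%, as a dashed line. Chromosome 12 was lowest at 4.14%, and chromosome Y, with 7 of 59 regions, has a wide interval.

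Of the 3664 on assembled chromosomes, 1247 (34.0%) were the sole region between 2 regions that carried a Q7SST peak. The median gap between neighbouring mutant-line-only regions was 292204 bp. Clusters were defined as at least 3 regions with no gap over 50 kb, and 112 clusters held 369 regions, or 10.0% (9.10% to 11.0%). The share was 2.28% with a gap of 20 kb and 19.9% with 100 kb, and it was 1.59% when only peaks scoring at least 47, the pooled median, were used in all 6 lists and 0% when that held for the mutant-line lists alone. There were 84 clusters of 3, 23 of 4 and 5 of 5. Of the 7817 regions of Q7SST alone 1486 were in clusters, and of the regions of all 6 lists 62.0%, but those classes have more regions, which brings neighbours closer. Of 2737 windows of 1 Mb, 1559 held a mutant-line-only region and 153 held 5 or more.

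The tightest cluster of 5 lay within Scn3a, across 41.8 kb at chr2:65525764-65567554. It held 7 merged regions, none with a Q7SST peak. From the start of the gene inward, the first region was the promoter described above, followed by a weak intronic region at chr2:65552471-65553193 with scores of 19 in Q111SST, 12 under cyproheptadine, 20 under loxapine, 17 under DKI and 21 under meclizine. The next, at chr2:65546714-65548110, scored 54, 39, 62, 35 and 69. A region within 1 kb of another annotated start, at chr2:65528749-65529815, scored 41, 35, 45, 29 and 31. The innermost, over an exon at chr2:65525764-65527705, scored 59, 56, 92, 73 and 109. Within the whole gene 5 of 9 merged regions were mutant-line-only, and 1 had a Q7SST peak.

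Arhgap31, which encodes a GTPase-activating protein for Cdc42 and Rac1, held the second cluster at chr16:38662315-38706352. All 5 regions were intronic, with lowest percentiles from 12.3 to 56.0, and none of the 6 merged regions in the span had a Q7SST peak. The strongest scored 73 in Q111SST, 47 under cyproheptadine, 79 under loxapine, 58 under DKI and 68 under meclizine. Over the gene as a whole 5 of 8 merged regions were mutant-line-only.

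The other clusters of 5 were mixed with regions that had a Q7SST peak. One lay at Drg1, Eif4enif1 and Sfi1 (chr11:3100302-3212990), where 5 of 15 regions had a Q7SST peak and the mutant-line-only ones had low ranks (lowest percentiles 0.272 to 24.9). At Tgfbr3, a co-receptor for TGF-beta (chr5:107079268-107222815), 5 of 17 regions had a Q7SST peak. At Foxp1 (chr6:98970590-99131640), 3 of 8 did. The sixth cluster held 4 regions within 24.5 kb at Foxc1, a forkhead factor of mesenchyme, and Gmds, an enzyme of GDP-fucose synthesis (chr13:31797124-31821663).

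Stretches with no Q7SST peak in any merged region were found at Glis1, a Kruppel-like zinc finger factor, where 14 regions in a row over 194 kb (chr4:107457311-107651342) held 5 mutant-line-only regions. At Ctsc, which encodes cathepsin C, and Rab38, a GTPase of lysosome-related organelles, 10 regions in a row over 725 kb (chr7:88200218-88925241) held 5. The longest stretch of all, 21 regions over 735 kb at chr5:14764392-15499127, held no mutant-line-only region, and the next, 19 regions, held 1.

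By gene body, Pde4d, a cyclic AMP phosphodiesterase, held 10 mutant-line-only regions among 68 merged regions in 1504 kb. Mecom, a transcription factor locus of stem cells, held 9 of 41, and Foxp1 held 8 of 32, against 6.01% of all merged regions. Dlgap2, a postsynaptic scaffold, held 6 of 28, and Thsd7a, a membrane protein of the thrombospondin type, 5 of 14. Glis1 held 5 of 15. These genes were picked for their counts. The annotated spans of Gm20388 (10 of 219 in 4435 kb) and Fgfr2 (7 of 94 in 2961 kb) are so long that their counts were set aside.

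By nearest coding start, Myc, the growth-promoting transcription factor, had the most distal mutant-line-only regions, with 11 between 11.1 kb and 678 kb from its start on both sides. They were weak, with lowest percentiles of 4.19 to 27.4 and a median of 18.5. Of the 54 merged regions in the same stretch of chromosome 15, 26 had a Q7SST peak. The closest, at chr15:61998484-61999513, scored 53 in Q111SST, 31 under cyproheptadine, 25 under loxapine, 34 under DKI and 41 under meclizine.

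The 1 Mb window with the most mutant-line-only regions was on chromosome 8 from 56000001 to 57000000, with 10 among 34 merged regions, of which 6 had a Q7SST peak. Among the other windows, 5 held 9. Of these, the one on chromosome 2 from 65000001 to 66000000 contains Scn3a and the one on chromosome 3 from 30000001 to 31000000 lies at Mecom.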

How the data were processed

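H3K4me3 ChIP-Seq peaks were available as 6 lists, 1 per condition, grouped by the sample labels. The submitters' processing notes name Trimmomatic 0.36, Bowtie2, SAMtools 1.3, MACS2 and mm10. The deposited files give a position and a whole-number score per peak. The authors' score has no stated scale, so it was used as a rank within a list. Peak-calling thresholds, input control, read depth and whether the triplicate treatments were pooled into a list are not given in the sources used here, and sequencing depth is unknown.

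Peaks overlapping by at least 1 bp were merged, and a region took its highest peak score. No peak lay beyond an end of the 21 GRCm38.p6 chromosomes. Starts came from GENCODE M21. A promoter was marked with a peak within 1 kb of any start, and a distal region lay over 5 kb from all. Sequence came from RefSeq GRCm38.p6. In all, 11 motifs were searched on both strands of the central 300 bases.

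Members, lists and tests were chosen with earlier results of these data known. The genes named were the 25 coding genes with the strongest mutant-line-only promoters and the 8 strongest distal regions, both by lowest percentile, those at the 6 largest clusters and the longest runs, and list genes with a region. Others were named after their values were seen. Python 3.11, pandas and pysam were used, and scripts were tested on simulated lists. Alternative thresholds, list sizes, merging, overlap, windows and gaps were tried.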

Additional observations from a re-analysis of the deposited data

How the results depend on the processing

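The number of mutant-line-only regions was 3679 and stayed within 1.5 times that value with equal list sizes, merging within 1 kb, no Q7SST peak within 1 kb and chromosomes 1 to 19. It moved to 1004 with a score of at least 47 (the pooled median) in all 6 lists, 423 with that score in the mutant-line lists and the whole Q7SST list, 5934 with Q111SST and at least 3 of the 4 compound lists, and 1824 with a 50% reciprocal overlap. In the same order as these 4 settings, the share within 1 kb of a start (14.5%) was 25.5%, 25.8%, 13.4% and 16.3%, and the share in clusters (10.0%) was 1.59%, 0%, 16.4% and 3.13%. The share near a start was 16.3% with equal list sizes, 9.57% with the start inside the region and 31.4% within 5 kb. The 205 genes became 60 with the score of 47 in the mutant-line lists alone and 130 with reciprocal overlap, and lay between 143 and 286 in the other 8 settings. The share in clusters was 2.28% with a gap of 20 kb and 19.9% with 100 kb. No cluster was left among the 423, and fewer regions and stronger regions cannot be told apart here. The score threshold applies 1 value to lists whose scales may differ.

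No paired analysis was possible because there was a single list for every condition. Without replicates, no difference between the lines or compounds was tested, and a call in 1 list and not in another can follow from depth or enrichment, which was not tested.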
